A study of Mus musculus with 12 samples.

Results

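Voltage-gated sodium channels, voltage-gated calcium channels and hyperpolarization-activated pacemaker channels carry the inward currents of the heartbeat. Their subunits were taken as every locus with a gene name of the forms Scn followed by a number and a or b, Cacna, Cacnb or Cacng followed by a number, or Hcn followed by a number. The rule found 47 of the 44450 loci in the deposited tables, covering 43 genes. Of these loci, 18 (17 genes) passed the filter used for testing, at least 1 FPKM (fragments scaled to transcript length and library size) in at least 3 of the 6 libraries, 5 were listed at 0 in every library, and 24 lay between. Scn2a is listed under its older symbol, Scn2a1, which the rule does not match.

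The libraries were made from total RNA of hearts of 11-week-old C57BL/6N mice. The 3 control libraries came from Mrpp3 loxP/loxP mice and the 3 knockout libraries from Mrpp3 loxP/loxP mice that were also +/Ckmm, which is read here as a Cre transgene under the promoter of Ckm, the creatine kinase of muscle. Both groups carry the loxP-flanked alleles and only the knockouts carry Cre, so an effect of Cre cannot be told apart from loss of Mrpp3, the nuclease subunit of mitochondrial RNase P. The promoter acts in striated muscle, so the other cells of the heart keep the gene, and the comparison asks what the loss in muscle does to heart RNA. Prorp, the current symbol of Mrpp3 (listed as 1110008L16Rik), stood at 2.64 to 3.49 FPKM in controls and at 0.441 to 0.701 FPKM in knockouts. Whether every library is a separate mouse is not said outright in the labels, and p-values therefore measure only the spread among these 6 samples.

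In a heart muscle cell the sodium channel pore formed by an alpha subunit starts the action potential, and the L-type calcium channel pore formed by an alpha-1 subunit lets in the calcium that triggers contraction. Beta and alpha-2-delta subunits bring the calcium channel to the membrane and set its gating, and sodium channel beta subunits are single-pass proteins that tune gating and adhesion. Pacemaker (Hcn) channels open on hyperpolarization and are strongest in the sinoatrial node. Among the forms used by the adult ventricle are Scn4b, Cacna1c, Cacnb2, Cacna2d1 and Hcn2. Hcn4, Cacna1d, Cacna1g and Cacna1h are known from the conduction system, the atria or the fetal heart, and Scn4a, Cacna1s, Cacnb1, Cacng1 and Cacng6 from skeletal muscle. The remaining 26 genes are known mainly from neurons and other tissues.

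Deposited files give no read totals. Steps between the lowest values put the other controls at 1.32 and 1.35 times the depth of control replicate 1 and the knockouts at 2.06 to 2.57 times, so low values and zeros are less certain in controls. Cardiomyocyte markers were abundant in every library, and 7 of 8 fell in the knockout, with summed levels of 38343 to 44239 FPKM in controls and 8295 to 18632 FPKM in knockouts. Among all 12181 tested loci 19.5% were called lower and 16.1% higher, and these shares stand beside each marker count given here. With a library left out between 2 (without control replicate 2 or 3) and 8 of the cardiomyocyte markers fell. Over all tested loci those fits called from 11.6 to 19.6% lower and from 9.95 to 17.7% higher. Atrial muscle markers stood far apart in knockout replicate 2, where the 6 markers summed to 14334 FPKM against 2072 and 2337 FPKM in the other knockouts and at most 122 FPKM in controls. Most of each knockout sum was Nppa, at 1948, 10527 and 2327 FPKM in replicates 1 to 3. In knockout replicate 3 Myl7, Myl4 and Sln (0.0961, 3.35 and 0 FPKM) lay within the control ranges. Bmp10 and Dkk3 (4.19 and 3.01 FPKM) lay above them. Of 4 tested atrial markers 2 rose, or from 1 to 4 with a library left out. Red blood cell markers were also highest in knockout replicate 2, at a sum of 21895 FPKM against at most 2902 FPKM elsewhere. Of the other cell types, all 5 macrophage markers rose (sums of 65.0 to 68.4 FPKM in controls and 105 to 119 FPKM in knockouts). With a library left out 4 or 5 of them did. Of 5 fibroblast markers 2 rose, the collagens Col1a1 and Col1a2. Pdgfra, Dcn and Dpt had lower means in knockouts and did not pass. The 5 fibroblast markers summed to 280 to 347 FPKM in controls and 259 to 350 FPKM in knockouts. Among smooth muscle markers 1 of 5 fell, and among tested Schwann cell markers 1 of 2. None of the tested endothelial, red blood cell, node or neuronal markers passed. In bulk tissue, fewer cells of a type and less RNA per cell cannot be told apart.

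Of the 18 tested channel loci, 8 fell, 2 rose and 8 did not pass (limma, Benjamini-Hochberg adjusted p under 0.05). Among all 12181 tested loci 19.5% were called lower and 16.1% higher, and these shares became 11.4% and 26.8% when each library was scaled to the same summed FPKM, where 7 channel loci fell and 2 rose. With that scaling the median log2 ratio over all tested loci was 0.19 in place of -0.020. These log2 ratios are knockout over control on the scale of log2(FPKM + 0.5), and understate the change of low genes. The median over the 18 channel loci was -0.67. Without knockout replicate 2, 9 channel loci fell (19.6% of all loci) and 2 rose (17.7%). Without another library 8 fell and 1 or 2 rose, beside 12.6, 11.6, 12.1, 16.1 and 19.2% of all loci lower and 10.5, 9.95, 10.8, 12.8 and 14.5% higher without control replicates 1 to 3 and knockout replicates 1 and 3. With no filter on low values 8 fell (9.45% of all loci) and 1 rose (8.0%), with array weights, which let noisier libraries count less, 10 fell (27.6%) and 3 rose (23.5%), and with replicate number as a block 8 fell (14.8%) and 2 rose (12.6%). By tissue class, 4 of the 7 adult ventricular genes fell and 1 rose, and 1 of 3 tested loci of the conduction, atrial or fetal class fell. Of 5 tested skeletal muscle loci, from 4 genes, 3 fell and 1 rose, and both Scn4a loci were among the 3. None of the 3 tested genes of other tissues passed, with unadjusted limma p-values of 0.038 for Cacnb3, 0.11 for Cacna1a and 0.48 for Scn7a. Both Scn4a loci and Cacng6 reached 1 FPKM only in controls, so these 3 passed the filter through the group in which they were high, and the counts above are to be read with that in mind.

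**Figure D1:**
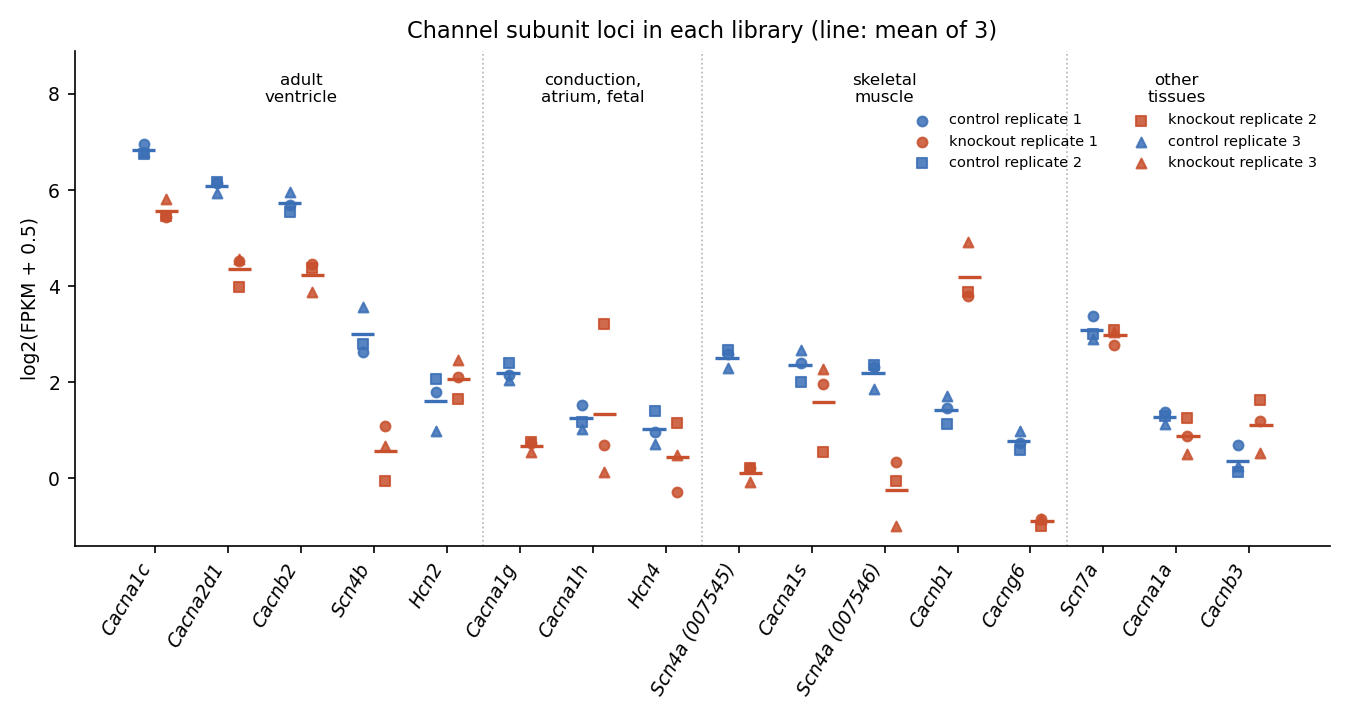
Level of 16 of the 18 tested channel loci in each library, as log2(FPKM + 0.5), grouped by the tissue in which the gene is best known; circles, squares and triangles are replicates 1 to 3 and lines are means of 3 libraries. Cacna1c, Cacna2d1 and Cacnb2 lie lower in all knockouts, Cacnb1 lies higher, and Cacna1h and Hcn4 are spread among the knockouts.

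The L-type calcium channel of the ventricle was lower in all of its main subunits. Cacna1c encodes its pore, Cav1.2, and lies on chromosome 6 at 118587240 to 119197384 (RefSeq, GRCm38.p6, also for the positions below). It stood at 123, 108 and 110 FPKM in controls and at 42.8, 43.5 and 56.1 FPKM in knockouts. The groups did not overlap, as for 28.7% of all tested loci in this direction, and the log2 ratio was -1.26 (SE 0.15, limma adjusted p = 0.0012). Cacna2d1, the alpha-2-delta subunit on chromosome 5 at 15934264 to 16374511, had 70.5, 71.1 and 60.6 FPKM in controls and 22.6, 15.3 and 23.3 FPKM in knockouts. All knockouts were again below all controls, with a log2 ratio of -1.72 (SE 0.18, limma adjusted p = 0.00079). Cacnb2, the main cardiac beta subunit on chromosome 2 at 14603861 to 14988811, had 51.4, 46.3 and 61.3 FPKM in controls and 21.4, 20.3 and 14.2 FPKM in knockouts. It fell by 1.50 on the log2 scale (SE 0.19, limma adjusted p = 0.0015). These 3 genes were the most abundant of the channel loci in controls, with only Cacna1c clear of the next. The ranges of Cacna2d1 and Cacnb2 overlapped. Ryr2, the sarcoplasmic calcium release channel and one of the cardiomyocyte markers, fell from 269 ± 24.4 to 77.6 ± 11.6 FPKM (SD, n = 3 each). The part of the lower cardiomyocyte markers in these falls was not tested.

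A second beta subunit moved the other way. Cacnb1, known as the beta subunit of the skeletal muscle calcium channel and made in several other tissues, had 2.24, 1.69 and 2.76 FPKM in controls and 13.4, 14.3 and 29.6 FPKM in knockouts. Every knockout was above every control, as for 23.6% of all tested loci in this direction. Its log2 ratio of 2.77 (SE 0.31, limma adjusted p = 0.00092) was the largest rise among the tested channel loci. Cacnb2 made up 93.8 ± 0.918% of summed beta subunit FPKM in controls and 47.5 ± 14.8% in knockouts, while Cacnb1 went from 3.91 ± 0.408% to 46.1 ± 15.5%. The ratio of Cacnb2 to Cacnb1 was 22.2 to 27.4 in controls and 1.59, 1.42 and 0.478 in the knockouts, so Cacnb1 was the more abundant of the pair only in knockout replicate 3. Summed over the class, beta subunit FPKM were 56.5 ± 8.26 in controls and 40.3 ± 5.23 in knockouts.

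The span of Cacnb1 (chromosome 11, 98001508 to 98023034) overlaps that of Rpl19, a ribosomal protein gene at 98022003 to 98030493, and any use of strand in the authors' values is not given in the sources used here. The Rpl19 locus had 85.2, 88.2 and 96.6 FPKM in controls and 125, 133 and 165 FPKM in knockouts, a log2 ratio of 0.64 (limma adjusted p = 0.016). Mean FPKM went from 90.0 to 141 for the Rpl19 locus and from 2.23 to 19.1 for Cacnb1, and the share of Cacnb1 fragments from the overlap was not tested. Of the other beta subunits, Cacnb3 had 1.11, 0.594 and 0.690 FPKM in controls and 1.78, 2.60 and 0.947 FPKM in knockouts, and the groups overlapped. It did not pass (log2 ratio 0.76, limma adjusted p = 0.088), but did without knockout replicate 3 (1.06, adjusted p = 0.021) and with array weights (0.88, adjusted p = 0.0081). Cacnb4, the beta subunit best known from the cerebellum, was not tested and had 0.312 to 0.604 FPKM in controls and 0.361, 0.369 and 1.59 FPKM in knockouts.

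**Figure D2:**
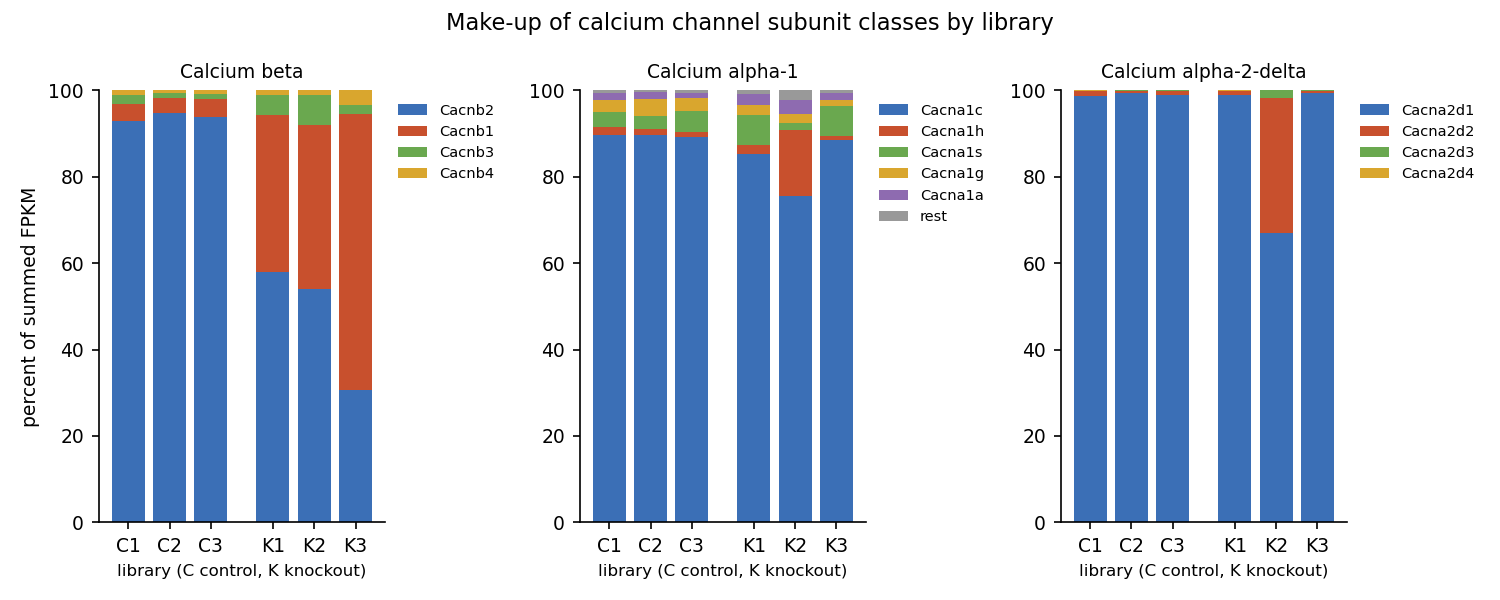
Share of each gene in the summed FPKM of the calcium channel beta, alpha-1 and alpha-2-delta classes, in percent, for each library (C1 to C3 control, K1 to K3 knockout). Cacnb1 holds a larger share and Cacnb2 a smaller share in all 3 knockouts than in any control. Cacna2d2 and Cacna1h have their largest shares in K2, at 31.2% and 15.1%.

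The low-voltage-activated (T-type) pores differed from each other. Cacna1g, the T-type pore of the adult conduction system, on chromosome 11 at 94408391 to 94474400, had 3.91, 4.77 and 3.63 FPKM in controls and 1.17, 1.18 and 0.967 FPKM in knockouts. It fell by 1.51 on the log2 scale (SE 0.15, limma adjusted p = 0.00067), with tight replicates on both sides. Cacna1h, the T-type pore prominent in the fetal ventricle, had 2.40, 1.75 and 1.54 FPKM in controls and 1.11, 8.70 and 0.589 FPKM in knockouts. Its knockouts lay on both sides of the controls, and it did not pass (log2 ratio 0.092, limma adjusted p = 0.93). Without knockout replicate 2 it was lower (log2 ratio -0.84, SE 0.25, limma adjusted p = 0.039). Of the other pores, Cacna1s, the skeletal muscle L-type channel, had 3.51 to 5.88 FPKM in controls and 3.39, 0.954 and 4.35 FPKM in knockouts, and Cacna1a, the P/Q-type channel of nerve terminals, had 1.68 to 2.11 FPKM and 0.926 to 1.89 FPKM. Neither passed (limma adjusted p = 0.20 for each), although Cacna1a did with array weights (log2 ratio -0.41, adjusted p = 0.041). Cacna1c held 89.2 to 89.7% of summed alpha-1 FPKM in controls and 85.3, 75.6 and 88.5% in knockouts, so one pore dominated throughout.

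Scn7a, a sodium-sensing relative of the alpha subunits found in glia and other non-muscle cells, had 9.97, 7.50 and 6.93 FPKM in controls and 6.38, 8.02 and 7.74 FPKM in knockouts. These values overlapped, with a log2 ratio of -0.12 (95% interval -0.51 to 0.26, limma adjusted p = 0.59) that turned to 0.094 after scaling to one sum and to 0.026 without control replicate 1.

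Scn4a, the sodium channel of skeletal muscle, was low in the control hearts and lower still in the knockouts. The deposited tables list it as separate loci, XLOC_007545 and XLOC_007546, so the gene's fragments are split between them; RefSeq places it on chromosome 11 at 106317545 to 106365559. The first had 5.48, 5.84 and 4.41 FPKM in controls and 0.662, 0.655 and 0.445 FPKM in knockouts (log2 ratio -2.40, SE 0.17, limma adjusted p = 0.00024). The second had 4.51, 4.66 and 3.11 FPKM in controls and 0.760, 0.468 and 0 FPKM in knockouts, and fell by 2.42 (limma adjusted p = 0.0023). All knockouts were below all controls at both loci. Both loci reached 1 FPKM only in controls, so passing the filter already fixed this separation, and both belong to 1 gene. Of 8 skeletal muscle markers 1 was tested, Tnni2 (fast troponin I), which fell from 1.55 ± 0.254 to 0.302 ± 0.157 FPKM and reached 1 FPKM only in controls. Of those not tested, Tnnt3 (fast troponin T) had 0.141 to 0.483 FPKM in controls and 0.677, 3.21 and 0.299 FPKM in knockouts, and Actn3 (fast-fibre actinin) at most 0.0330 and 0.0449, 0.256 and 0.0496 FPKM. Myh4, a fast myosin of skeletal muscle, was listed at 0 in all 6 libraries, and Myh1 and Myh2 were at most 0.0420 FPKM in any library. The 8 markers summed to 1.57 to 4.40 FPKM in controls and 1.24 to 4.47 FPKM in knockouts. In the sodium alpha class both Scn4a loci added together went from 14.7 ± 1.22% to 2.17 ± 1.04% of summed FPKM. FPKM are already scaled to length, so adding the loci of 1 gene can overstate its share beside genes with a single locus.

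Among the sodium channel beta subunits, Scn4b fell. This subunit, which shapes resurgent and late sodium current, had 5.72, 6.40 and 11.4 FPKM in controls and 1.62, 0.455 and 1.09 FPKM in knockouts. Its log2 ratio was -2.44 (SE 0.34, limma adjusted p = 0.0023), close to those of the Scn4a loci. All knockouts were below all controls. Scn4b made up 53.1 to 64.5% of summed sodium channel beta FPKM in controls and 6.38 to 13.4% in knockouts. Scn3b, a further beta subunit, had 0.116 to 0.414 FPKM in controls and 0.358 to 0.994 FPKM in knockouts and was not tested.

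Scn4b lies next to Scn2b, the beta subunit to which its protein is most closely related, and the sequences before their starts are shown because the neighbours had such different levels. Scn2b had 0.0877 to 0.244 FPKM in controls and 0.0558 to 0.0946 FPKM in knockouts. The 250 bases before each RefSeq start (GRCm38.p6, chromosome 9, plus strand) are chr9:45117626-45117875 for Scn2b and chr9:45138374-45138623 for Scn4b, with CpG pairs in capitals.
Scn2b: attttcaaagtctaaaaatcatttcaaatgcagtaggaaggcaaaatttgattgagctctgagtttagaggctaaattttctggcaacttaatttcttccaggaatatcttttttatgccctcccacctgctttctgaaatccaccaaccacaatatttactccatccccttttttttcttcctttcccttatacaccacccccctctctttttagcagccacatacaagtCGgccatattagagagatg
Scn4b: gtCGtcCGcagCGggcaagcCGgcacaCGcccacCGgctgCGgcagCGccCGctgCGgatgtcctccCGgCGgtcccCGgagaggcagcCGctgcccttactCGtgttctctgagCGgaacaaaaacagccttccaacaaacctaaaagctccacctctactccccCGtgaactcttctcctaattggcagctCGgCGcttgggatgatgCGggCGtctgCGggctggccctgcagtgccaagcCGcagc
The Scn4b window held 23 CpG pairs at 66% G and C, and the Scn2b window 1 at 38.4%, against medians of 6 and 52.4% over the 32851 windows of that table. Neither window held any of these on either strand: the ATF4 composite motif TGATGNAA (in 3.45% of all windows), the muscle E-box CAGCTG (13.0%), the sequence of blood and heart zinc-finger factors AGATAA (9.99%), the nuclear receptor half-site AAGGTCA (4.08%) and the TATA box TATAAA (12.4%). Of the 43 genes 31 had a window in that table, and among the 17 windows of tested channel genes 4 held the E-box, 1 each the ATF4, zinc-finger and nuclear receptor sequences, and none the TATA box.

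**Figure D3:**
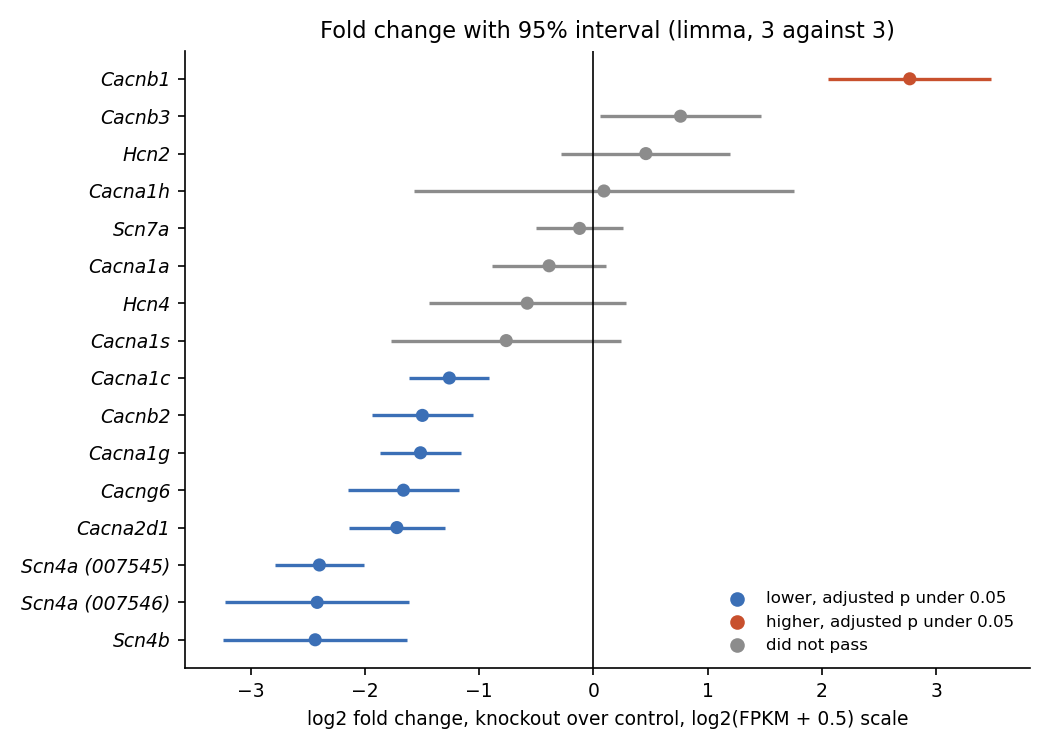
Log2 ratio of 16 of the 18 tested channel loci, knockout over control, with its 95% interval from limma (3 libraries against 3); colours mark adjusted p under 0.05. The 8 loci that fell lie between -2.44 and -1.26, and Cacnb1 lies highest, at 2.77.

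Pacemaker channel subunits were low in every library and none passed the test. Hcn2, the main ventricular form, had 2.98, 3.70 and 1.47 FPKM in controls and 3.80, 2.65 and 5.03 FPKM in knockouts. Hcn4, the form that marks the sinoatrial node, had 1.45, 2.16 and 1.13 FPKM in controls and 0.324, 1.72 and 0.889 FPKM in knockouts. The groups overlapped for both, with log2 ratios of 0.46 for Hcn2 (95% interval -0.28 to 1.20, limma adjusted p = 0.29) and -0.58 for Hcn4 (-1.44 to 0.28, limma adjusted p = 0.26). Hcn4 passed with array weights (log2 ratio -1.25, adjusted p = 0.0078), and its log2 ratio without knockout replicate 2 was -0.93 (adjusted p = 0.055). Hcn3 was at most 0.177 FPKM in any library. Hcn2 made up 52.4 to 54.5% of summed Hcn FPKM in controls and 86.4, 47.9 and 81.9% in knockouts, so replicate 2 lay nearest to the controls, below their range. Over the sinoatrial node markers, the 6 summed to 9.73 to 13.6 FPKM in controls and to 7.10, 25.0 and 6.47 FPKM in knockouts. Most of each sum was Rgs6, at 5.98 to 10.6 FPKM in controls and 4.35, 19.8 and 3.69 FPKM in knockouts. Isl1, one of the genes that define the node, had a value of 0 in the controls and in knockout replicate 3, and at most 0.0255 FPKM in the others.

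Several channel genes were at their highest in knockout replicate 2, the library with high atrial transcripts. Cacna2d2, an alpha-2-delta subunit of brain and atrium, had 7.14 FPKM there, against 0.181 and 0.0748 FPKM in the other knockouts and 0.384 to 0.921 FPKM in controls. It gave 31.2% of summed alpha-2-delta FPKM in that library and at most 1.29% in any other. Cacna1d, the L-type pore Cav1.3 of node and atrium, had 1.11 FPKM there and 0.262 to 0.303 FPKM in the other 5 libraries. Cacna2d3 had 0.394 FPKM there and at most 0.0565 FPKM elsewhere, and Cacna1h was described above. Among partner genes, Fgf12, a sodium channel binding protein, had 27.6 FPKM in that library and at most 0.813 FPKM in any other, and Tbx5, a transcription factor of atria and conduction system, had 22.2 FPKM against 2.90 to 8.50 FPKM. All 6 atrial muscle markers were highest there too: Myl7, the atrial light chain, had 911 FPKM against 43.5 and 0.0961 FPKM in the other knockouts and at most 1.90 FPKM in controls. The part of atrial tissue in these values was not tested.

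**Figure D4:**
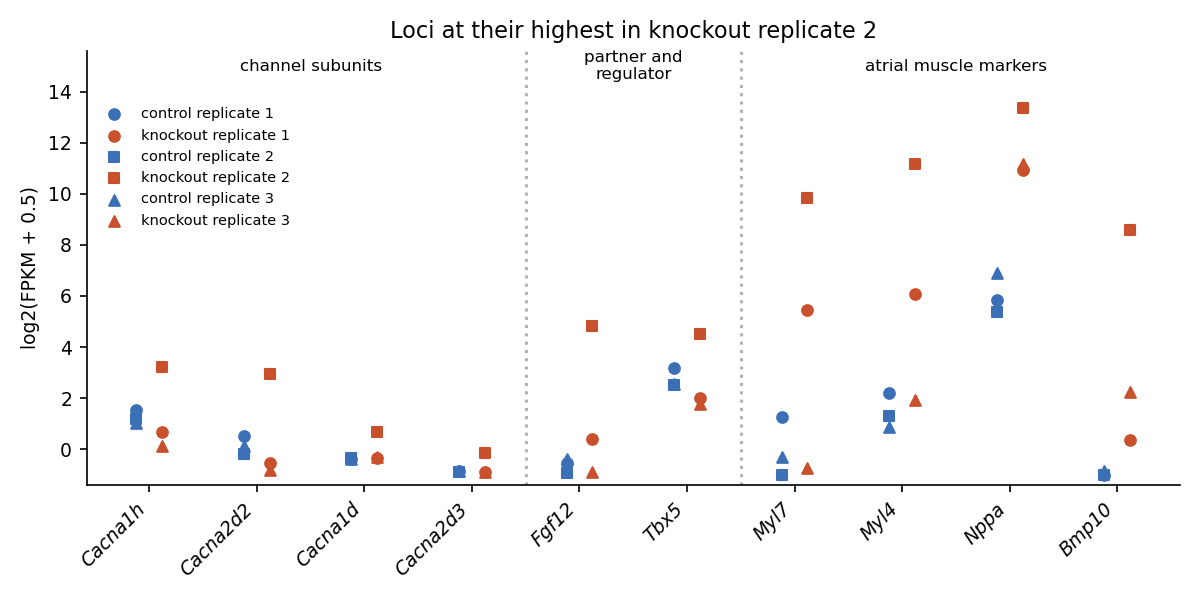
Level in each library, as log2(FPKM + 0.5), of channel subunits, partner and regulator genes and atrial muscle markers that were at their highest in knockout replicate 2 (red squares). Cacna2d2 stood there at 7.14 FPKM and Myl7 at 911 FPKM, above the other 5 libraries in each case.

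Gamma subunits, membrane proteins related to claudins that join some calcium channels, were scarce. Cacng6, a skeletal muscle form, was the only one tested. It had 1.16, 1.01 and 1.47 FPKM in controls and 0.0575, 0 and 0.0571 FPKM in knockouts, and fell by 1.66 on the log2 scale (SE 0.21, limma adjusted p = 0.0015), which understates the change of so low a gene. With a pseudocount of 0.1 the value was -3.26. Cacng6 reached 1 FPKM only in controls, so passing the filter already fixed that its knockouts lay below its controls. Cacng7 was steadier, at 0.684 to 0.795 FPKM in controls and 0.541 to 0.786 FPKM in knockouts. Its neighbours on chromosome 7 are Cacng8 and Cacng6, and the tables hold a second locus for each of these 3 genes that was listed at 0 in every library. Cacng2 and Cacng3, best known from brain, were also listed at 0 throughout, and Cacng1, Cacng4, Cacng5 and Cacng8 stayed at or below 0.0962 FPKM.

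The 24 loci above 0 that did not reach the filter were mostly neuronal or retinal forms, and 19 of them were below 1 FPKM in every library. Cacna1d, Cacna2d2, Cacnb4 and Scn3a were among the 5 that reached 1 FPKM somewhere. With no filter on low values none of the 24 passed limma at an adjusted p under 0.05, and 2 had an unadjusted p under 0.05. One was Scn10a (Nav1.8), a sensory neuron pore, with 0.659, 0.476 and 0.245 FPKM in controls and 0.0665, 0.215 and 0.0393 FPKM in knockouts (limma adjusted p = 0.069). The other was Scn3b, at an adjusted p of 0.15. Scn3a, an embryonic brain form, ran from 0.559 to 1.44 FPKM in controls and from 0.374 to 0.728 FPKM in knockouts. Scn1a, Scn8a, Scn9a, Scn11a, Cacna1b, Cacna1e, Cacna1f and Cacna2d4 were at most 0.247 FPKM in any library, and Cacna1i reached 0.604 FPKM in control replicate 1 alone. Among markers of cardiac neurons, Chrna3 was at 0 in all libraries. Stmn2, a growth-associated protein of neurons, had 1.08 to 1.36 FPKM in controls and 0.661 to 1.53 FPKM in knockouts and did not pass (limma adjusted p = 0.62). Dbh, the noradrenaline-synthesizing enzyme of sympathetic neurons, had 0.638 to 1.17 FPKM in controls and 0.0171 to 0.418 FPKM in knockouts, without overlap, and was not tested. The part of neuronal RNA in the Scn10a values was not tested.

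Lists of genes that bind or regulate these channels were counted in the same way, and no share of a list was tested against that of all loci. Of the sodium channel partners 11 of 14 were tested, and 3 fell and 1 rose, beside 19.5% and 16.1% of all tested loci, with a median log2 ratio of -0.25 against -0.020 over all tested loci. Without knockout replicate 2, 3 fell and 2 rose (19.6% and 17.7% of all loci). Fgf13, which binds the channel's tail and slows its inactivation, fell from 21.3 ± 1.83 to 11.2 ± 2.89 FPKM (log2 ratio -0.93, limma adjusted p = 0.0080). Ank2 (ankyrin-B) and Gpd1l fell by 0.55 and 0.48. Both calls were lost without control replicate 1 (adjusted p = 0.064 and 0.079) or control replicate 2 (0.072 and 0.087). Without either of these controls no partner rose, beside 10.5% and 9.95% of all loci. The call of Gpd1l was also lost without control replicate 3 (0.11) or knockout replicate 1 (0.077), and Gpd1l and Ank2 did not pass after scaling to one sum (0.11 and 0.10).

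Of the calcium channel partners 16 of 20 were tested, and 5 fell and 2 rose (19.5% and 16.1% of all loci), with a median log2 ratio of -0.25. Without knockout replicate 2 the counts were 5 and 2 again (19.6% and 17.7% of all loci). Of those that fell, 3 were calmodulin-dependent kinases that phosphorylate the channel. Camk2a had 10.9, 12.1 and 12.5 FPKM in controls and 3.78, 2.65 and 2.01 FPKM in knockouts (log2 ratio -1.93, limma adjusted p = 0.00071), and Camk2b and Camk2g fell by 1.43 and 0.85. Camk2b reached 1 FPKM only in controls, so it passed the filter through the group in which it was high. Camk2d, the most abundant of the 4 in heart, had 66.0 to 74.9 FPKM and 50.6 to 66.9 FPKM and did not pass (limma adjusted p = 0.20). Sri (sorcin) rose by 0.84, Akap7 fell by 0.72 and Jph2 (junctophilin, which ties the surface membrane to the calcium store) fell by 0.66, all at limma adjusted p from 0.021 to 0.025. Calm2, 1 of 3 genes for the same calmodulin protein, rose by 0.64 (limma adjusted p = 0.020). Without control replicate 1 or 3 the calls of Sri (adjusted p = 0.053 and 0.082), Akap7 (0.078 and 0.063), Jph2 (0.057 and 0.081) and Calm2 (0.059 and 0.054) were lost. Without control replicate 2 those of Sri, Jph2 and Calm2 were (0.068, 0.069 and 0.090), and without knockout replicate 1 those of Sri and Akap7 (0.057 and 0.076). Rrad, a small GTPase that inhibits the L-type channel, was at 69.6 to 103 FPKM in controls and 90.9 to 111 FPKM in knockouts and did not pass.

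Neither tested pacemaker partner passed, though Kctd3 had a limma adjusted p of 0.056. Without knockout replicate 2, 1 of them rose, beside 17.7% of all loci. Of the 16 transcription regulators 13 were tested and 1 fell (19.5% of all loci), or 2 without knockout replicate 2 (19.6%). This was Irx4, a factor of ventricular identity, with 10.7, 10.8 and 11.5 FPKM in controls and 6.73, 1.29 and 3.90 FPKM in knockouts (log2 ratio -1.58, limma adjusted p = 0.029). Its knockouts were all lower but far apart, with replicate 2 lowest, and its call was lost without control replicate 1, 2 or 3 (adjusted p = 0.076, 0.075 and 0.084) and without knockout replicate 3 (0.052). Rest, a repressor of neuronal and pacemaker channel genes, had 5.43 to 6.23 FPKM in controls and 4.39 to 5.28 FPKM in knockouts, without overlap, and did not pass (limma adjusted p = 0.17). Nkx2-5, a core cardiac factor, differed little, with 20.1 to 21.1 FPKM and 20.1 to 22.4 FPKM.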

How the data were processed

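Of 12 libraries, the 6 total RNA libraries (3 control, 3 knockout) were analysed and the 6 PARE libraries of mitochondrial RNA were not used here. Groups and replicate numbers came from the source names in the labels. The deposited values are FPKM per locus, 1 library per file, per the file headers and file names. Per the submitters' processing notes the tools include HISAT 0.1.6, StringTie 1.1.0, Cufflinks 2.2.1 and Cuffdiff, with build GRCm38; how each was used, the annotation, scaling and strand handling were not given in the sources used here. No count model was fitted, FPKM being normalized values. Relative depth was read from the most frequent ratio between libraries of the values of pseudogene and small RNA loci under 1 FPKM, and whole reads were not recovered; counting intervals are left out.

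limma was run on log2(FPKM + 0.5), version 3.58.1 in R 4.3.3 (two-sided moderated test, variance trend on mean level), over 12181 loci, with Benjamini-Hochberg adjustment over all of them and a threshold of 0.05. The script was tested on simulated data. Shares are percent of summed FPKM within a subunit class and carry no test. Results for some members and listed genes are not reported here. The other members found by the rule are named, and of each partner list those past the threshold, up to 6 with the largest change. Tissue classes, partner lists and cell type markers were chosen with earlier results of these data known, as were the members. Calm2 and the partners named that did not pass were added after their values were seen. Alternatives were other pseudocounts, filters, scalings, a replicate block, array weights, no variance trend and each library left out, the last over the same 12181 loci.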

Additional observations from a re-analysis of the deposited data

How the results depend on the processing

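Over 16 alternatives, 12 of the 18 tested channel loci kept their direction and their side of the threshold wherever they could be fitted, among them all 8 that fell and Cacnb1. Both Scn4a loci, from 1 gene, and Cacng6 passed the filter only through the controls. Fits with a library left out kept the same loci, so the steadiness of these loci is no separate support. Cacng6 had no value after scaling to one sum, where it no longer passed the filter. The count that rose, 2, was 1 with no filter, 3 with array weights and from 1 to 2 with 1 library left out, where without knockout replicate 3 Cacnb3 was 1 of the 2. The count that fell, 8, was 7 after scaling to one sum, 10 with array weights and from 8 to 9 with 1 library left out. Cacna1h turned from 0.092 to -0.016 with a pseudocount of 0.1, -0.40 with array weights, -0.014 without control replicate 3 and -0.84 without knockout replicate 2, and ran from -0.84 to 0.70 with 1 library left out. Scn7a turned from -0.12 to 0.094 after scaling to one sum and 0.026 without control replicate 1, and ran from -0.22 to 0.026 with 1 library left out. With the replicate block 2 rose and 8 fell, and it changed no call of a channel locus. Same-numbered libraries did not deviate together over all loci (correlations of -0.083, -0.064 and -0.0063). This cannot exclude a pairing with small effects or effects on few genes, and the labels do not say whether the numbers pair the samples. Over all loci the block left 1536 higher and 1807 lower in place of 1966 and 2377. Among partners, Ank2 and Akap7 lost their calls under the block (adjusted p = 0.050 and 0.053). With no filter on low values Akap7 and Irx4 lost theirs (0.051 and 0.070), and after scaling to one sum Akap7 and Jph2 (0.088 and 0.050). Depth limits what can be said of the 24 loci that did not reach the filter.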

Other observations

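Scn2a, the embryonic and adult brain sodium channel pore listed as Scn2a1, lies outside the rule for names. It had 0.229, 0.190 and 0.219 FPKM in controls and 0.566, 0.194 and 0.115 FPKM in knockouts, so the knockouts lay on both sides of the controls, and it was not tested. It was looked at after the values were seen.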
